A study of Rattus norvegicus with 16 samples.

Results

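Muscle ubiquitin ligases were followed by their mRNA in the left ventricle of rats after 5/6 nephrectomy (5/6Nx), an operation that removes most of the kidney tissue and serves as a model of chronic kidney disease, and after sham surgery. The set was listed by symbol as Fbxo32, Trim63, Trim54, Trim55, Fbxo30, Fbxo40, Stub1 and Mul1, and a locus entered when its gene entry held 1 of these symbols. Of the 8 listed genes, 7 were found in all 4 tables, each at a single locus, among 22861 loci at weeks 2, 4 and 5 and 22868 at week 7. Fbxo40 was not analysed here. All animals were male Sprague Dawley rats operated on at 10 weeks of age and kept on 0.4% Dyets chow, and no group carried a further treatment or allele. Hearts were taken 2, 4, 5 or 7 weeks after surgery. Each of the 8 groups (sham or 5/6Nx at each time) held 2 libraries, each made from a pool of 2 to 3 rats, so the spread between single animals was not measured.

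Ubiquitin ligases choose the proteins that are tagged with ubiquitin for breakdown by the proteasome, and a few of them act mainly in striated muscle. Fbxo32 (atrogin-1, also MAFbx) and Trim63 (MuRF1) are the classic marker genes of muscle atrophy: in wasting skeletal muscle their transcription is raised by FoxO factors and glucocorticoids and held down by insulin-like growth factor and Akt signalling. In the heart, work in mice has tied the same ligases to sarcomere protein turnover and to the limits of hypertrophic growth. Chronic kidney disease is a known setting of skeletal muscle wasting, and the comparison here asks what these genes did in the heart of the same model.

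Of the 16 libraries, 15 had between 44.5 and 61.8 M (mega) reads and the second 5/6Nx pool of week 7 had 23.6 M, with 94.0% to 94.9% of reads mapped. The 4 libraries of week 7 had 96.0% to 96.2% of bases at quality 30 or above, against 93.2% to 94.5% in the other 12. Levels are FPKM (fragments normalised to transcript length and to library depth), 1 value per group and locus in the authors' deposited tables, with no value per library. A log2 fold change is 5/6Nx over sham, and the ± beside it is a standard error derived from the deposited p. Heart muscle markers were high in every group, with 7 loci summing to 32358 to 93531 FPKM, while 8 skeletal muscle markers (such as Myh1, Myh4 and Actn3) summed to 3.99 to 8.05 FPKM, and Myh1, Myh4 and Myf6 were each listed at 0 in at least 1 group. In bulk tissue, fewer cells of a type and less RNA per cell cannot be told apart.

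The promoter of Trim63 is the textbook case of how these genes are switched on, and it is shown here beside that of Trim54, the related gene that differed most from sham. The sequences are from RefSeq (build GRCr8), 250 bases before to 50 after the annotated start. They cover chr5:151816986-151817285 on the plus strand for Trim63 and chr6:30978426-30978725 on the minus strand for Trim54. Capitals mark a run of 22 letters in Trim63, a glucocorticoid receptor motif with 1 letter differing (TGAACAATCTGTTCT), directly followed by a FoxO motif on the other strand (TGTTTAC).
Trim63: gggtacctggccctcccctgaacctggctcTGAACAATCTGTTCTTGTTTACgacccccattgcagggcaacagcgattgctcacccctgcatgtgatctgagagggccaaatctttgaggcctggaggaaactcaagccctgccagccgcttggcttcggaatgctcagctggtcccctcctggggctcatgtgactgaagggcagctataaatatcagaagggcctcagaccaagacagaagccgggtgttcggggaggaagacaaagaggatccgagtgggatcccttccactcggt
Trim54: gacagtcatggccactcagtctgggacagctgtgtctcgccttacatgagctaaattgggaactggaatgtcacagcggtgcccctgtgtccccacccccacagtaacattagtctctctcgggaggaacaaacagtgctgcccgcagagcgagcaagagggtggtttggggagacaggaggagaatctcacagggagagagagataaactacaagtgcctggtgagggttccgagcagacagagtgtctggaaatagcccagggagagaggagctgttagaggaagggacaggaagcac
The motifs searched on both strands were CANNTG (the E-box), held by 72.1% of 33469 promoters in the same table, GTAAACA for FoxO, held by 3.78%, and the palindromic glucocorticoid receptor motif of 15 letters, held by 0.0149% exactly and by 0.215% with at most 1 letter differing. Of 5 measured members with a promoter in that table (Trim63, Trim54, Fbxo30, Stub1 and Mul1), only Trim63 held a FoxO or glucocorticoid receptor match in this window, while all but Fbxo30 held an E-box. A match of letters is a description and not a bound site.

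No muscle ubiquitin ligase was called at any week. By the authors' Cuffdiff test, 0 of 7 members passed at weeks 2, 4, 5 and 7, where 0%, 0.334%, 0.55% and 1.75% of all tested loci were called. At an unadjusted p under 0.05 the counts were 0, 0, 0 and 1 of 7, against 2.77%, 5.47%, 4.44% and 10.8% of tested loci, and the smallest q-value of any member in the authors' deposited table was 0.414 (Trim54 at week 7). The members' counts are no result about the members beside these shares. Of the 28 fold changes, 22 lay below sham and 6 above, and 17 of 21 lay below without week 7. The members of a week were read in the same libraries, so these signs are not independent and their count is no test. The median log2 fold change of the members was -0.043, -0.19, -0.12 and -0.24 at weeks 2, 4, 5 and 7, beside medians of -0.020, -0.020, 0.0022 and -0.012 over all tested loci. The share of all loci below sham was 54.9%, 53.7%, 49.6% and 51.1%. In the week 7 table the authors' test statistic and the fold change had opposite signs at all 13645 comparable loci. Directions there follow the names of the columns, and each would turn if those names were exchanged, which would give 19 fold changes below sham and 9 above. As named, all 6 macrophage markers lay above sham at week 7 as at weeks 2, 4 and 5. Among these, Lyz2 (lysozyme) had log2 fold changes of 0.49, 0.30, 0.67 and 2.36 at weeks 2, 4, 5 and 7. The matrix gene Postn (periostin) had 0.54, 0.91, 1.32 and 3.49, and both genes were chosen after their values were seen.

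**Figure D1:**
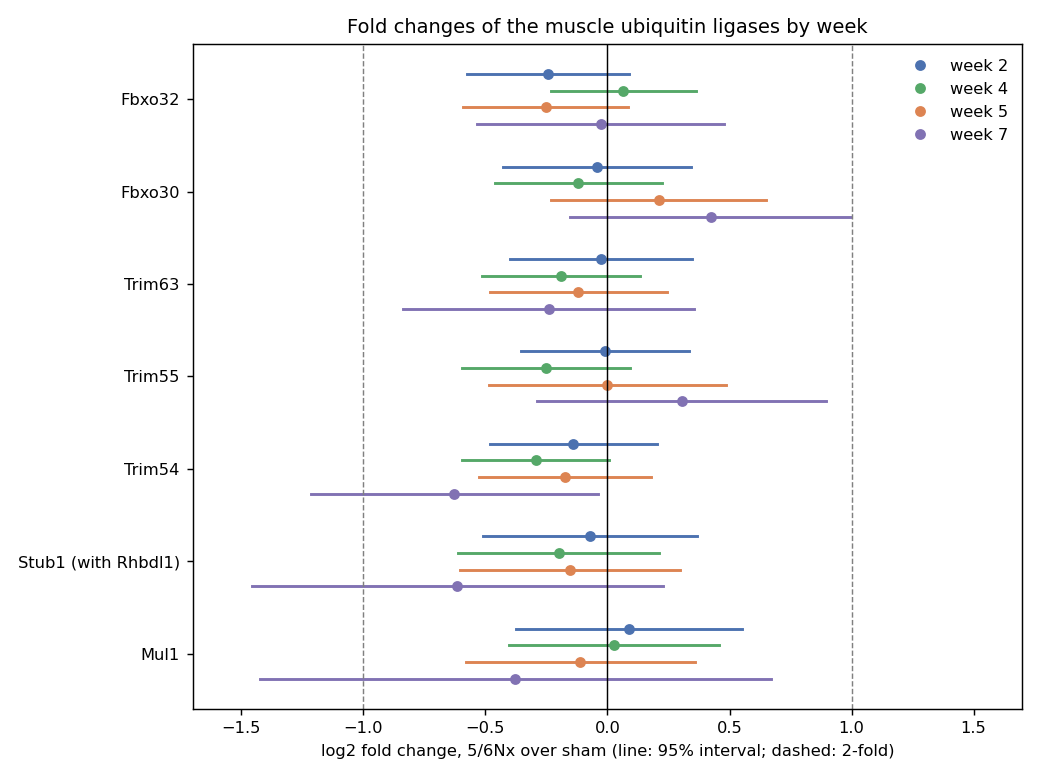
Log2 fold change (5/6Nx over sham) of the 7 measured muscle ubiquitin ligases at 2, 4, 5 and 7 weeks, with 95% intervals as lines and dashed marks at 2-fold. The intervals include 0 except that of Trim54 at week 7 (-1.22 to -0.040). None reaches a 2-fold rise with the week 7 columns as named, though that of Fbxo30 at week 7 ends at 0.999.

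The F-box members are the substrate-binding parts of SCF ligase complexes. Fbxo32 (XLOC_019534, chromosome 7, 98663298 to 98702239 in rn5, as are all loci below) stood at 35.9 FPKM in sham and 30.3 in 5/6Nx at week 2, 31.3 and 32.7 at week 4, 17.6 and 14.7 at week 5, and 59.3 and 58.2 at week 7. Its lowest levels were those of week 5 and its highest those of week 7, in both groups, while weeks 2 and 4 overlapped. Its log2 fold changes were -0.24 ± 0.17, 0.064 ± 0.15, -0.25 ± 0.17 and -0.029 ± 0.26, below sham at weeks 2, 5 and 7 and above it at week 4. The best-known atrophy gene thus stood at 0.839 to 1.05 of its sham level over the 4 weeks.

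Fbxo30, known in mice as MUSA1, a ligase of denervation atrophy that is restrained by bone morphogenetic protein signalling (XLOC_000010, chromosome 1, 7018180 to 7046531), stood at 12.8 FPKM in sham and 12.4 in 5/6Nx at week 2, 14.4 and 13.3 at week 4, 4.59 and 5.31 at week 5, and 19.7 and 26.4 at week 7. It lay below sham at the first 2 times and above it at the later ones. The log2 fold changes were -0.043 ± 0.20, -0.12 ± 0.17, 0.21 ± 0.22 and 0.42 ± 0.29. The week 7 value, a 1.34-fold difference, was the largest above sham of any member with the columns as named, with p = 0.15 and q = 0.698 in the authors' deposited table. With the week 7 columns exchanged Fbxo30 would lie below sham, at 0.746, and Trim54 would be the highest, at 1.54-fold.

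The MuRF members are RING-finger ligases of the sarcomere that share a tripartite motif. Trim63 (MuRF1), which in mice ubiquitinates thick-filament proteins and binds titin (XLOC_016659, chromosome 5, 156292532 to 156343201), stood at 64.4 FPKM in sham and 63.2 in 5/6Nx at week 2, 65.8 and 57.7 at week 4, 71.5 and 65.8 at week 5, and 49.6 and 41.9 at week 7. The 5/6Nx value was the lower at each week. Its log2 fold changes were -0.027 ± 0.19, -0.19 ± 0.17, -0.12 ± 0.19 and -0.24 ± 0.30, and the 95% interval of each included 0.

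Trim55 (MuRF2), a titin-associated ligase (XLOC_011020, chromosome 2, 124139906 to 124182046), stood at 44.2 FPKM in sham and 43.8 in 5/6Nx at week 2, 52.7 and 44.3 at week 4, 89.0 and 89.0 at week 5, and 103 and 127 at week 7. It was next to equal in the groups of weeks 2 and 5. The log2 fold changes were -0.011 ± 0.18, -0.25 ± 0.17, -0.00064 ± 0.25 and 0.30 ± 0.30. At week 7 it lay on the other side of sham from Trim63 and Trim54.

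Trim54 (MuRF3), which binds microtubules and the Z-disc in muscle cells (XLOC_018154, chromosome 6, 36419743 to 36439243), stood at 223 FPKM in sham and 202 in 5/6Nx at week 2, 231 and 189 at week 4, 249 and 220 at week 5, and 42.7 and 27.6 at week 7. The 5/6Nx value was the lower at all 4 weeks. Its log2 fold changes were -0.14 ± 0.17, -0.29 ± 0.15, -0.17 ± 0.18 and -0.63 ± 0.30. The week 7 difference (5/6Nx at 0.647 of sham) was the largest of any member and the only one with an unadjusted p under 0.05 by Cuffdiff (p = 0.0363, q = 0.414 in the authors' deposited table), and 20.4% of all loci with a fold that week differed by as much or more. With a standard error from the deposited test statistic in place of the p, its interval ran from -1.45 to 0.19 and included 0.

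The remaining members act outside the sarcomere. Stub1 (CHIP), the ligase that works with the Hsp70 and Hsp90 chaperones, was not counted alone: its locus (XLOC_004089, chromosome 10, 15003585 to 15017086) also carries Rhbdl1, a rhomboid-like protease gene, and no value separates the pair. The same span is also given for a locus named Jmjd8,Wdr24. The joint locus stood at 126 FPKM in sham and 120 in 5/6Nx at week 2, 135 and 118 at week 4, 192 and 172 at week 5, and 48.6 and 31.7 at week 7. It was lower in 5/6Nx at every week, with log2 fold changes of -0.072 ± 0.22, -0.20 ± 0.21, -0.15 ± 0.23 and -0.62 ± 0.43. The week 7 difference had p = 0.152 in the authors' deposited table.

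Mul1, a ligase of the outer mitochondrial membrane that ubiquitinates mitofusin 2 (XLOC_016699, chromosome 5, 160598595 to 160628561, a span also given for Camk2n1), stood at 12.4 FPKM in sham and 13.2 in 5/6Nx at week 2, 12.1 and 12.3 at week 4, 17.6 and 16.3 at week 5, and 8.34 and 6.42 at week 7. It lay above sham at weeks 2 and 4 and below it at weeks 5 and 7. The log2 fold changes were 0.087 ± 0.24, 0.025 ± 0.22, -0.11 ± 0.24 and -0.38 ± 0.53.

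**Figure D2:**
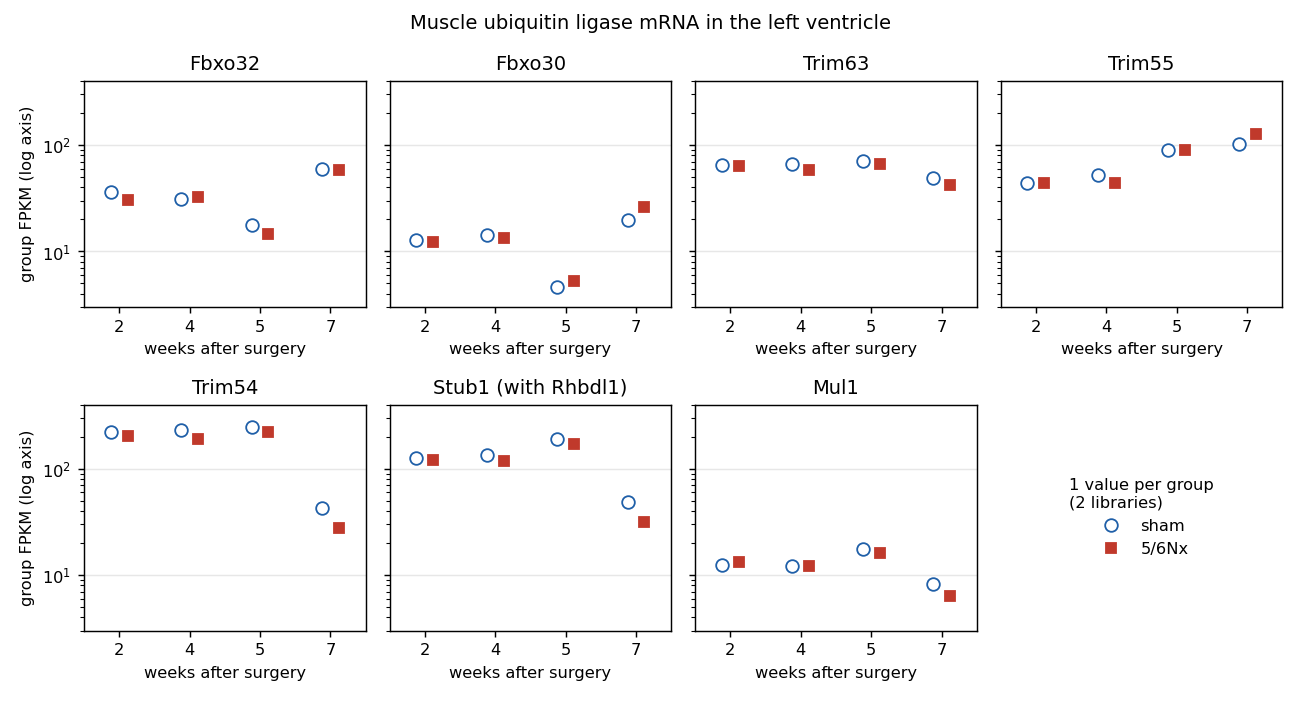
FPKM of each measured muscle ubiquitin ligase (log axis) by week after surgery, with 1 group value each for sham (open circles) and 5/6Nx (filled squares). The order of the members differs between the weeks, and Trim54 drops from 249 FPKM in sham at week 5 to 42.7 at week 7, in a table deposited separately.

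Per length, the order of the members was the same in sham at weeks 2 and 4: Trim54 was the most abundant, then Stub1 (with Rhbdl1), Trim63, Trim55, Fbxo32, Fbxo30 and Mul1. Trim54 stood above 96.7% of tested loci in sham at week 2, Trim63 above 89.8%, Fbxo32 above 82.6% and Mul1 above 60.8%. The neighbours Fbxo30 and Mul1 (12.8 and 12.4 FPKM in sham at week 2) changed places between sham and 5/6Nx that week. At week 5 Trim55 stood above Trim63, and Mul1 and Fbxo32 (17.6 FPKM each in sham) above Fbxo30. At week 7 the order was another again, led by Trim55, Fbxo32 and Trim63, with Trim54 above 85.2% of loci. Each week has a table of its own, and the sources used here do not say whether these share a scaling. Levels of different weeks therefore stand side by side without a test. The spread between libraries behind this order was not measured.

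The 95% intervals say which sizes of change the data leave room for. All 28 excluded a 2-fold rise, 25 excluded a 2-fold fall, and 16 excluded a change of 1.5-fold either way. For Fbxo30 at week 7 the rise was only just excluded, with an upper limit of 0.999 on the log2 scale. The 3 that reached a 2-fold fall were those of Trim54, Stub1 and Mul1 at week 7. With the week 7 columns exchanged, 25 would exclude a 2-fold rise and 28 a 2-fold fall, and without week 7 all 21 excluded both. With the wider standard errors from the deposited statistic, a median of 1.42 times as large, 25 of 28 excluded a 2-fold rise and 24 a 2-fold fall. The upper limit of Fbxo30 at week 7 was then 1.24, and the 1.5-fold count was not made with these errors. At week 7 the members' standard errors ran from 0.26 to 0.53, against 0.15 to 0.25 over the earlier weeks. A miss of the threshold does not show that 5/6Nx and sham were alike.

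No member passed the test of a difference between the weeks. Cochran's Q over the 4 weekly fold changes gave an adjusted p of 1.0 for each of the 7, adjusted over 12120 loci. Of these loci 24, or 0.198%, passed. With standard errors from the deposited statistic 0.891% passed, so those errors, wider for each member, were not wider at every locus. With standard errors from p, the unadjusted p of Cochran's Q ran from 0.35 for Fbxo30 to 0.907 for Trim63. The range of a member's log2 fold changes was narrowest for Trim63 (0.21) and widest for Trim55 (0.56).

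Markers of some cell types moved beside these values, at the earlier weeks as well as at week 7. At week 7 all 7 heart muscle marker loci lay below sham, with a median log2 fold change of -0.55 and a summed level of 41593 FPKM in sham and 32358 in 5/6Nx, 0 of them called. The medians of these markers at weeks 2, 4 and 5 were -0.16, -0.18 and -0.11. All 6 macrophage markers lay above sham at each week, with medians of 0.48, 0.31, 0.41 and 1.19 and 0, 0, 1 and 3 of them called, and their summed level at week 7 was 161 FPKM in sham and 708 in 5/6Nx. Fibroblast markers lay above sham at 6 or 7 of 7 loci each week, with medians of 0.54 to 0.71 and 0, 3, 2 and 1 of them called. Of 4 atrial markers, all lay below sham at weeks 2, 4 and 7, with medians of -0.42, -0.93 and -1.35 and 0, 2 and 2 of them called, and 2 lay below at week 5. Adipocyte markers had 3 of 5 called lower at week 4 (median -1.46) and 3 of 4 tested at week 5 (median -2.33). None was called at week 2 (median -0.48) or at week 7, where 1 of 2 tested lay above sham and 1 below. No smooth muscle marker (medians 0.037, -0.15, 0.16 and -0.19) or endothelial marker (0.024, 0.24, 0.017 and 0.22) was called at any week. Over all tested loci, 0%, 0.177%, 0.396% and 1.43% were called higher at weeks 2, 4, 5 and 7. The shares called lower were 0%, 0.156%, 0.154% and 0.315%. The part of these marker shifts in the values of Trim54, Stub1 and the other members was not tested.

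The machinery around the ligases was likewise without calls. Of 6 SCF core genes, none was called at any week. Cul1, the SCF scaffold, had log2 fold changes of -0.026 ± 0.18, -0.081 ± 0.16, 0.028 ± 0.18 and 0.15 ± 0.29 at weeks 2, 4, 5 and 7, and Skp1, the adaptor that holds F-box proteins, had -0.091 ± 0.17, -0.079 ± 0.15, 0.098 ± 0.19 and 0.19 ± 0.28. Of 16 genes for ubiquitin and its activating and conjugating enzymes, 0 were called. Ubb, which encodes ubiquitin itself, stood at -0.11 ± 0.17, -0.10 ± 0.16, 0.13 ± 0.20 and -0.65 ± 0.29, with q = 0.371 at week 7 in the authors' deposited table. No gene was called among 22 other ubiquitin ligases of muscle (21 tested at week 7) or 11 deubiquitinases. Over all tested loci, 0%, 0.334%, 0.55% and 1.75% were called at weeks 2, 4, 5 and 7. Counts of 0 in lists of 6 to 22 genes are near these shares and no result about the lists. The medians of these 4 lists lay between -0.12 and 0.14 over the weeks.

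Calls were found in the list of FoxO factors and atrophy-linked genes, of which 25 were tested each week. This list was chosen with earlier results of these data known, so its calls beside the shares of all loci are no test. The counts called were 0 at weeks 2 and 5, 2 lower at week 4 and 3 higher at week 7, where 0.156% of all tested loci were called lower at week 4 and 1.43% higher at week 7 (0.396% were called higher at week 5). Irs2, which carries insulin signals inward, fell from 6.31 to 3.70 FPKM at week 4 (-0.77 ± 0.20), and Pdk4, the kinase that shuts off pyruvate dehydrogenase, fell from 467 to 282 FPKM (-0.73 ± 0.18). At weeks 2, 5 and 7, where neither was called, Irs2 stood at 0.42 ± 0.19, 0.20 ± 0.19 and 0.52 ± 0.30, and Pdk4 at -0.24 ± 0.19, 0.60 ± 0.23 and -0.43 ± 0.33. At week 7 the metallothionein genes Mt2A and Mt1a, which encode metal-binding proteins, rose from 7.98 to 109 FPKM (3.77 ± 0.93) and from 6.93 to 57.2 FPKM (3.04 ± 0.75). The sham level of Mt2A at week 7 lay below the 72.5, 97.1 and 26.6 FPKM of weeks 2, 4 and 5, and that of Mt1a below 56.1, 59.2 and 74.0 FPKM. Mt2A stood at -0.49 ± 0.23, 0.042 ± 0.19 and -0.48 ± 0.27 at those weeks, not called. Ctsl1, the lysosomal protease cathepsin L, rose from 334 to 708 FPKM (1.08 ± 0.27). Those 3 genes encode metal-binding proteins and a lysosomal enzyme, not ligases. Macrophages, whose markers were higher that week, also make cathepsin L, and their part in this value was not tested. The list's medians were -0.080, -0.036, -0.11 and 0.099.

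The FoxO factors themselves stood near sham. Foxo1 had log2 fold changes of 0.0071 ± 0.20, 0.014 ± 0.17, -0.030 ± 0.21 and -0.10 ± 0.28, and Foxo3 had 0.12 ± 0.18, -0.15 ± 0.16, -0.033 ± 0.19 and 0.085 ± 0.27. Among 13 genes of the growth pathway that opposes atrophy (12 tested at week 5), 0 were called. This is near the 0% to 1.75% of all tested loci called by week. Igf1 stood at 0.22 ± 0.19, 0.025 ± 0.15, 0.17 ± 0.17 and 0.50 ± 0.27, above sham each week. Akt1 stood at -0.10 ± 0.17, -0.097 ± 0.16, 0.0034 ± 0.19 and -0.61 ± 0.28. The week 7 value of Akt1 had p = 0.0294 and q = 0.383 in the authors' deposited table.

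Of 24 tested loci of partners and substrates of the ligases, none was called. They included the myosin heavy chain locus Myh6,Myh7, which stood at 2127 FPKM in sham and 1034 in 5/6Nx at week 7 (-1.04 ± 0.53), troponin I (Tnni3, -0.67 ± 0.32) and myosin-binding protein C (Mybpc3, -0.51 ± 0.30). Mfn2, the mitofusin gene, stood at -0.55 ± 0.28 that week. These 4 loci were chosen after their values were seen. The list had 20, 20, 17 and 17 of 24 loci below sham at weeks 2, 4, 5 and 7, with medians of -0.063, -0.13, -0.075 and -0.20. Over all loci with a fold, 54.9%, 53.7%, 49.6% and 51.1% lay below sham at those weeks. The loci Myh6,Myh7, Tnni3, Tnnt2, Myl2 and Myl3 of this list are also among the heart muscle markers above, so those results share loci. In the calpain system, the other protease path of muscle, 0 of 4 tested genes were called. For both lists, 0 calls are near the share of all tested loci called, 0% to 1.75% by week.

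**Figure D3:**
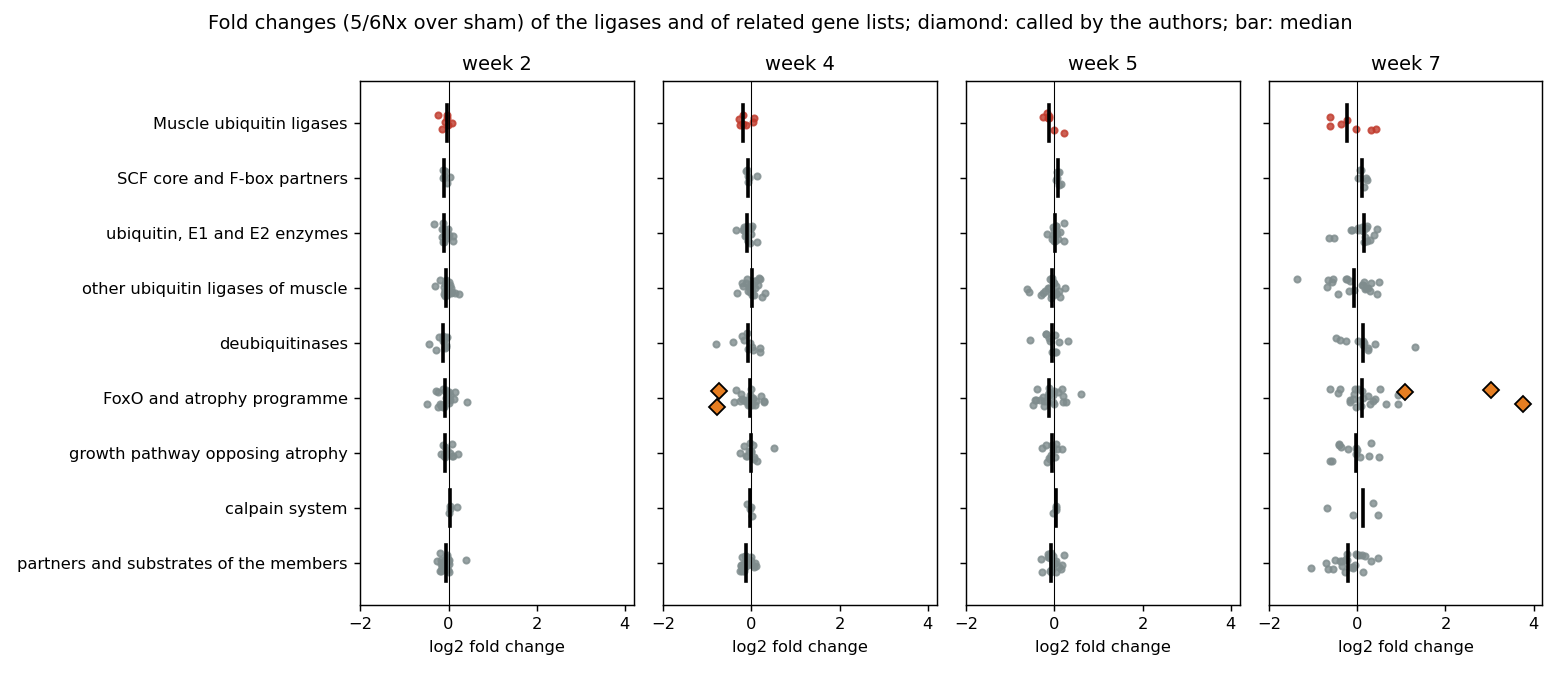
Log2 fold change (5/6Nx over sham) of each tested gene, by list (rows) and week (panels), with the median as a bar and loci called by the authors as diamonds. Diamonds appear only in the FoxO and atrophy list, 2 below sham at week 4 and 3 above it at week 7, and no ligase is marked. The lists were chosen with earlier results of these data known.

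Genes whose 4 weekly log2 fold changes lay nearest to those of Fbxo32, by Euclidean distance among 8379 genes, were Ipp (0.069), Clk1 (0.092) and Sfxn2 (0.096). Nearest to Trim63 were Cltb (0.026), RGD1359310 (0.045) and Gata2 (0.046). Within a distance of 0.2 lay 98 genes for Fbxo32 and 593 for Trim63. The distances of the named genes were smaller than the standard error of any weekly fold change of Fbxo32 or Trim63 (0.15 or more). Their order is therefore not resolved, and shared regulation was not tested.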

How the data were processed

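RNA of 16 libraries (2 per group, 8 groups) was prepared with a stranded total RNA kit and read in pairs on an Illumina HiSeq, per the labels' protocols. Build rn5 and the tools Cuffdiff, Cufflinks 2.0.10, TopHat2 2.0.10 and cutadapt are listed, per the submitters' processing notes, without roles. The deposited tables, 1 per week, give 1 abundance per group and locus, taken as FPKM from the layout of Cuffdiff output, since the header says only abundance. Each locus also has a test statistic (a score), a p-value and a q-value made by the authors, per the file headers. Reads per library (a count) and the percent of bases at quality 30 and of reads mapped come from a further table of the authors. No library had a value of its own, so the authors' call stood, as planned for that case, and no model was refitted.

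Log2 fold changes were computed from the FPKM values. The deposited log2 column held entries that are not numbers and was not used. Standard errors were derived by dividing the absolute log2 fold change by the two-sided normal quantile that the p corresponds to, an upper bound at the smallest deposited p (5e-05), and 95% intervals follow from them. They rest on Cuffdiff's model of the variation among 2 pools per group, not among animals. Cochran's Q was adjusted by the Benjamini-Hochberg method over all loci tested in 4 weeks. Simulated data served to check that it made few false calls with standard errors derived from p. Recovery of planted changes was required only with the standard errors used to draw the data, which the real data lack. How well it finds a difference between weeks here is therefore not established. In the week 7 table, 313 entries repeating a locus with another symbol were merged. Members and lists were chosen with earlier results of these data known. Named genes were all members, up to 4 called genes per function list and week, a fixed set of genes (Foxo1, Foxo3, Akt1, Igf1, Ubb, Cul1, Skp1 and 1 that is not reported here) and the 3 genes nearest in pattern to Fbxo32 and to Trim63 with FPKM of at least 1 in all groups. Older symbols were matched through a RefSeq table (GRCr8): 125 of 134 entries over the function lists matched. Other alternatives were q thresholds, pseudocounts, centring and a low-level filter. Python 3.11.15, pandas 2.3.3, numpy 2.4.6 and scipy 1.17.1 were used.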

Additional observations from a re-analysis of the deposited data

How the results depend on the processing

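No paired analysis was possible because the tables hold 1 value per group, and for the same reason no replicate could be left out. Of 163 values under an alternative, 160 kept their direction and their side of the threshold, or for counts stayed within 1.5 times. These include the counts below sham and of intervals with the week 7 columns exchanged or without week 7, alternatives chosen after seeing the data. The count of ligases called stayed at 0 of 7 at each week with q of at most 0.01, q of at most 0.10 and adjustment over loci with FPKM of at least 1. With the smallest q of any member at 0.414, the counts at both q thresholds could only be 0, and they too are among the 160. Pseudocounts of 0.1 and 1 and centring on the weekly median moved the log2 fold changes by at most 0.045. Summing loci left each value as it was, since every member has a single locus. A pseudocount added to both groups cannot turn a sign, so only centring could. Of the 28 centred values 1 turned: Trim55 at week 2 became 0.010 (the weekly median was -0.021). The summed and pseudocount values, counted among the 160 above, could thus not show a turn. The adjusted p of the difference between weeks stayed at 1.0 for all 7 without week 7, with the low-level filter, and with standard errors from the deposited statistic, an alternative chosen after seeing the data. Under that last setting 108 of 12121 loci passed, against 24 of 12120. The main standard errors are upper bounds at the smallest deposited p, so Q can be too low at such loci. Of the genes called over the 8 function lists, 0 were left at week 4 with q of at most 0.01 (2 in the main result), where the smallest q of any locus lay above that threshold, and 5 were counted at week 7 with q of at most 0.10 (3 in the main result). Depth was lowest at week 7, where 1 of the 5/6Nx libraries held 23.6 M reads, and the median standard error over all loci was 0.35 there against 0.20 to 0.23 at the other weeks.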

Other observations

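The deubiquitinase gene Usp2, whose transcription follows the circadian clock, lay below sham at all 4 weeks, at 39.9 and 32.7 FPKM (sham and 5/6Nx) at week 2, 44.5 and 33.4 at week 4, 43.1 and 29.2 at week 5, and 38.3 and 27.3 at week 7. Its log2 fold changes were -0.29 ± 0.18, -0.41 ± 0.17, -0.56 ± 0.17 and -0.48 ± 0.27, and the lowest q among these, 0.108 at week 5 in the authors' deposited table, missed the threshold, so it was not called. Park2, the mitophagy ligase parkin, also lay below sham each week, with 4.17 FPKM in sham and 1.61 in 5/6Nx at week 7 (-1.37 ± 0.49, q = 0.149 in the authors' deposited table). Usp2 and Park2 were chosen after their values were seen. Of 123 list loci with a fold at all 4 weeks, 27 (22%) lay below sham at every week and 7 (5.69%) above. Of all 12123 loci tested with a fold in all 4 weeks, 16.1% and 12.7% did so. The list loci were not held to that filter and include untested ones such as Capn3 and Mstn, so the shares are over unlike sets. With the week 7 columns exchanged the list counts would be 11 and 0, against 6.84% and 4.79% of those 12123 loci.

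The atrophy-linked genes Bnip3, a mitophagy receptor, and Gadd45a, a stress response gene, stood just outside the call at week 7, each with q = 0.0502 in the authors' deposited table. Bnip3 had 478 FPKM in sham and 909 in 5/6Nx (0.93 ± 0.28), and Gadd45a had 79.1 and 150 (0.92 ± 0.28). They too were chosen after their values were seen.

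The sham levels of the ligases in the week 7 table stood outside those of the other weeks for each of the 7 members. Trim54 had 42.7 FPKM in sham at week 7 against 223 to 249 in the other tables, Stub1 (with Rhbdl1) 48.6 against 126 to 192, Trim63 49.6 against 64.4 to 71.5, and Mul1 8.34 against 12.1 to 17.6. Fbxo32 had 59.3 against 17.6 to 35.9, Trim55 103 against 44.2 to 89.0, and Fbxo30 19.7 against 4.59 to 14.4. The 4 members that were lower in the week 7 sham group were also below sham in 5/6Nx that week (-0.24 to -0.63), while the 3 that were higher had log2 fold changes of -0.029, 0.30 and 0.42. Both sets of values share the week 7 sham libraries, so they are given side by side only. The week 7 libraries also had the higher share of bases at quality 30, and its part in these levels was not tested.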
